A study of Mus musculus with 9 samples.

Results

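The GDNF-Ret pathway of the ureteric bud tips was examined as a set of 10 genes among the 24138 loci for which the authors deposited expression values. The 10 loci are those that carry the symbols *Gdnf*, *Gfra1*, *Ret*, *Etv4*, *Etv5*, *Spry1*, *Spry2*, *Spry4*, *Sox8* and *Sox9*, and each symbol matched 1 locus. They were selected by symbol, for their known places in the pathway, and not by a rule on measured values. Earlier results of these data were, however, known when the genes were chosen.

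Bulk RNA-seq was performed on whole mouse kidneys at E15.5, with 3 kidneys and 3 libraries of each genotype, numbered 1 to 3. *Foxd1GC/+;Ntn1fl/fl* kidneys (homozygous, MUT) carried a GFP-Cre insertion in 1 *Foxd1* allele and 2 floxed alleles of *Ntn1*, which encodes the secreted guidance molecule Netrin 1. *Foxd1GC/+;Ntn1fl/+* kidneys (heterozygous, HET) carried the same insertion and 1 floxed *Ntn1* allele, and *Ntn1fl/fl* kidneys (wild type, WT) carried 2 floxed alleles and no Cre. All lines were kept on the C57Bl6/J background, and embryos came from 3 crosses with the sexes combined. The Cre is driven by the *Foxd1* locus and so acts in stromal progenitors and their descendants, while *Ret* is a gene of the ureteric bud. MUT and HET kidneys each lack 1 intact *Foxd1* allele, whereas a difference between either of them and WT joins the *Foxd1* insertion, the Cre and the deletion of *Ntn1*, which cannot be told apart.

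GDNF is a secreted growth factor of the cap mesenchyme that binds the co-receptor GFRα1 and activates RET, a receptor tyrosine kinase on the ureteric bud tips. RET signals through MAPK and PI3K cascades and raises the ETS transcription factors Etv4 and Etv5, which drive branching of the bud, as well as the Sprouty proteins that damp receptor tyrosine kinase signalling. Loss of this signal in mice leads to absent or small kidneys.

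Expression was measured as FPKM, fragments per kilobase of transcript scaled to the size of the library, so levels may be compared between genes. The reads behind each value are unknown and no counting error is given. From the spacing of the lowest values, the relative depth of the libraries was estimated, roughly, and ranged from 0.574 in WT-2 to 1.28 in MUT-1, with WT-1 set to 1. The targeted gene, *Ntn1*, had 26.1, 28.9 and 17.8 FPKM in WT, in the order of the library numbers, 12.3, 12.0 and 16.5 in HET and 10.8, 16.5 and 11.04 in MUT, so every WT library lay above all others, while MUT and HET overlapped. The level of the whole *Ntn1* locus therefore did not check the MUT label against the HET label. Markers of the ureteric epithelium and of nephron progenitors, the main cells of RET and GDNF, were present at a mean of at least 1 FPKM for 11 of 11 and 5 of 5 genes in each genotype. The library HET-2 stood apart, with a summed FPKM over 5 liver markers of 696 against 25.5 to 50.02 in the other 8 libraries, and of 27.0 over 7 autonomic neuron and adrenal medulla markers against 3.07 to 7.45. Markers of the adrenal cortex summed to 0.594 to 1.04 FPKM over 4 genes. *Foxd1*, which has 1 allele replaced in HET and MUT, had 31.0±4.46 FPKM in WT, 21.1±0.801 in HET and 23.9±1.22 in MUT (mean±s.d., n=3 each), with every HET and MUT library below every WT library. In whole kidneys, fewer cells of a type and less RNA per cell cannot be told apart.

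None of the tested pathway genes passed the test in any comparison. Values were transformed to log2(FPKM + 1) and compared by limma for the genes whose mean reached 5 FPKM in 1 or both of the genotypes, with Benjamini-Hochberg adjustment over all genes tested and a threshold of 0.05. On this scale the fold change of genes with low FPKM is understated. Of the 10 genes, 9 were tested, and *Sox8* fell below the minimum. Between MUT and HET, 0 of 9 were called, against 0% of 10081 genes in all. Between MUT and WT it was 0 of 9 against 0% of 10096, and between HET and WT 0 of 9 against 0% of 10105. At an unadjusted limma p under 0.05 there were 0 of 9 members in each comparison, against 6.31%, 0.644% and 1.07% of all genes. The log2 fold changes of the 9 genes ran from -0.076 to 0.20 between MUT and HET, where 4 were higher and 5 lower, from 0.0057 to 0.28 between MUT and WT, where 9 were higher, and from -0.12 to 0.24 between HET and WT, where 7 were higher and 2 lower. The limma adjusted p of the 9 genes were at least 0.738 between MUT and HET, 1.00 between MUT and WT and 0.998 between HET and WT. The targeted gene *Ntn1* was not called either. Its log2 fold change was -0.87 between MUT and WT (limma adjusted p = 0.9998) and -0.78 between HET and WT (limma adjusted p = 0.998). The lack of a call therefore does not show that a gene was unchanged. Any pair of these comparisons shares the libraries of 1 genotype, so they are not independent. The median over the 9 genes was -0.0055, 0.079 and 0.044, respectively, beside -0.016, -0.0035 and 0.0075 over all tested genes.

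The 95% intervals of limma give the sizes that 3 libraries a genotype leave possible. Over the 9 genes, the intervals between MUT and HET reached from 0.760-fold to 1.42-fold of FPKM + 1, those between MUT and WT from 0.767-fold to 1.76-fold, and those between HET and WT from 0.718-fold to 1.51-fold. These are the outermost bounds over the 9 genes, and single genes such as *Spry2* had narrower intervals.

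**Figure D1:**
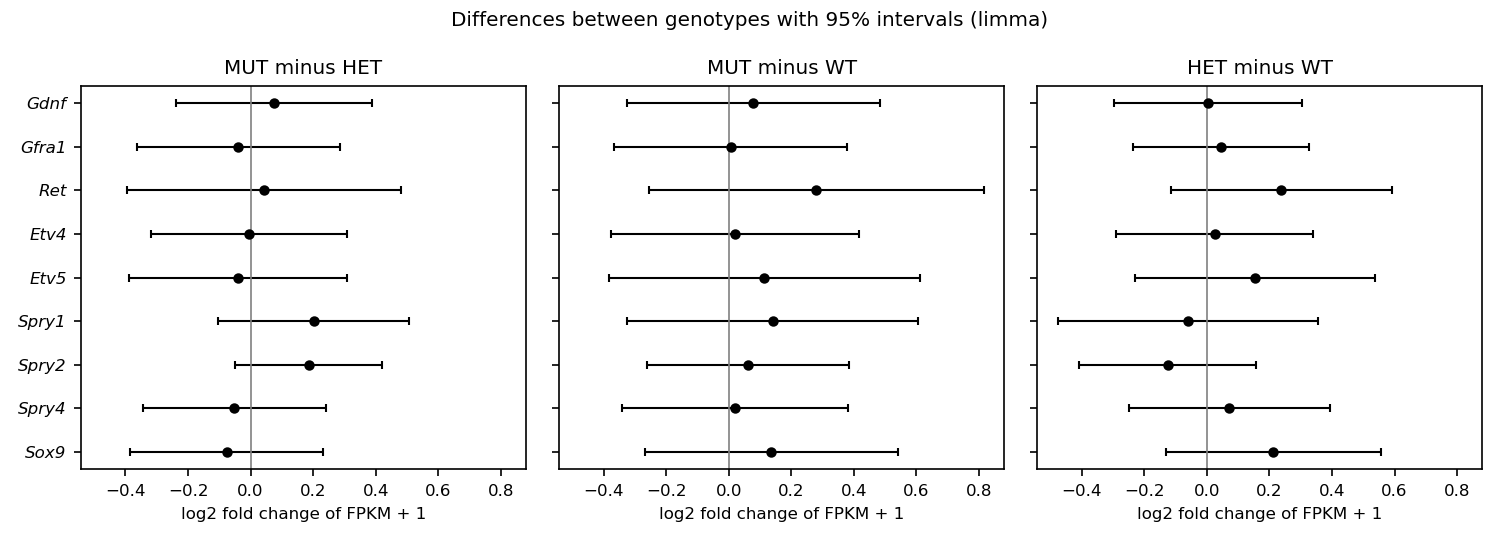
Log2 fold change of FPKM + 1 (x axis) of the 9 tested GDNF-Ret genes (y axis) between MUT and HET, MUT and WT, and HET and WT kidneys, as points with 95% intervals from limma. Every interval includes 0, and *Ret* between MUT and WT has the widest, from -0.26 to 0.82.

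*Gdnf*, the ligand, lies on chromosome 15, 7810048-7837580 (mm10 coordinates of the deposited table, start counted from 1), on the forward strand. In the order of the library numbers, *Gdnf* had 17.96, 16.3 and 12.2 FPKM in WT, 15.8, 15.0 and 15.2 in HET and 19.2, 12.5 and 17.7 in MUT. The lowest values were those of WT-3 and MUT-2 and the highest that of MUT-1, so the HET libraries, which hardly differed, lay inside the ranges of both other genotypes. The log2 fold change was 0.075 between MUT and HET (standard error 0.14, limma adjusted p = 0.899, exact permutation p = 0.7), 0.079 between MUT and WT and 0.0035 between HET and WT. An exact two-sided permutation test of 3 libraries against 3 cannot give a p under 0.1.

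Both receptor components are tip genes of the ureteric bud. *Gfra1*, the co-receptor that binds GDNF, lies on the reverse strand of chromosome 19, 58235581-58455398, and had 40.0, 47.2 and 36.6 FPKM in WT, 42.2, 39.2 and 45.9 in HET and 45.3, 32.6 and 47.3 in MUT. The 3 genotypes overlapped, with MUT-2 the lowest and MUT-3 and WT-2 the highest. *Gfra1* overlaps a gene annotated on the opposite strand, as do *Spry1*, *Spry4* and *Sox8*, and whether the counting used the strand of the stranded libraries is not given in the sources used here. *Ret*, the signalling receptor, lies on the reverse strand of chromosome 6, 118151748-118197744, and had 10.5, 12.4 and 7.53 FPKM in WT, 12.6, 10.9 and 12.4 in HET and 14.9, 8.01 and 15.4 in MUT. *Ret* was lowest in WT-3 and MUT-2 and highest in MUT-3 and MUT-1, so that the MUT libraries alone spanned most of the range of the 9.

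For *Gfra1*, the log2 fold change was -0.039 between MUT and HET (standard error 0.15, limma adjusted p = 0.953, exact p = 0.9). *Ret* had the widest range of the tested genes, 2.05-fold from the lowest to the highest library, with a coefficient of variation of 32.4% in MUT, 24.1% in WT and 7.92% in HET. Its mean was 10.2±2.45, 12.0±0.947 and 12.8±4.14 FPKM in WT, HET and MUT (mean±s.d., n=3 each). The differences were 0.042 between MUT and HET (limma adjusted p = 0.965) and 0.28 between MUT and WT (standard error 0.24, limma adjusted p = 0.9998). Between HET and WT the difference was 0.24. Each difference was less than the range over the WT libraries and that over the MUT libraries on the same scale. The HET libraries lay closer together, and their range was less than the difference of HET from WT. When single libraries were left out, these values of *Ret* ran from 0.099 to 0.56 between MUT and WT, lowest without WT-3 and highest without MUT-2, and from 0.057 to 0.38 between HET and WT, lowest without WT-3 and highest without WT-2. Markers of the ureteric epithelium, the tissue of *Ret*, were higher in MUT than in WT for 11 of 11 genes and in HET than in WT for 9 of 11 (median log2 fold change 0.14 and 0.12), without a call in limma, and the part of the amount of this epithelium in the *Ret* values was not tested. RET and GFRα1 are also found in neural crest derivatives such as autonomic ganglia, and the neural and adrenal medulla genes *Th*, *Dbh* and *Chga* reached 4.93, 5.13 and 5.03 FPKM in HET-2 against at most 0.359, 0.272 and 0.546 in the other libraries. In that library, *Ret* and *Gfra1* had the lowest values of the HET libraries, and without it the log2 fold change of *Ret* between MUT and HET was -0.020. The part of these cells in the values was not tested. Markers of Schwann cells and crest progenitors summed to between 1.93 and 3.53 FPKM over 4 genes in the 9 libraries.

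**Figure D2:**
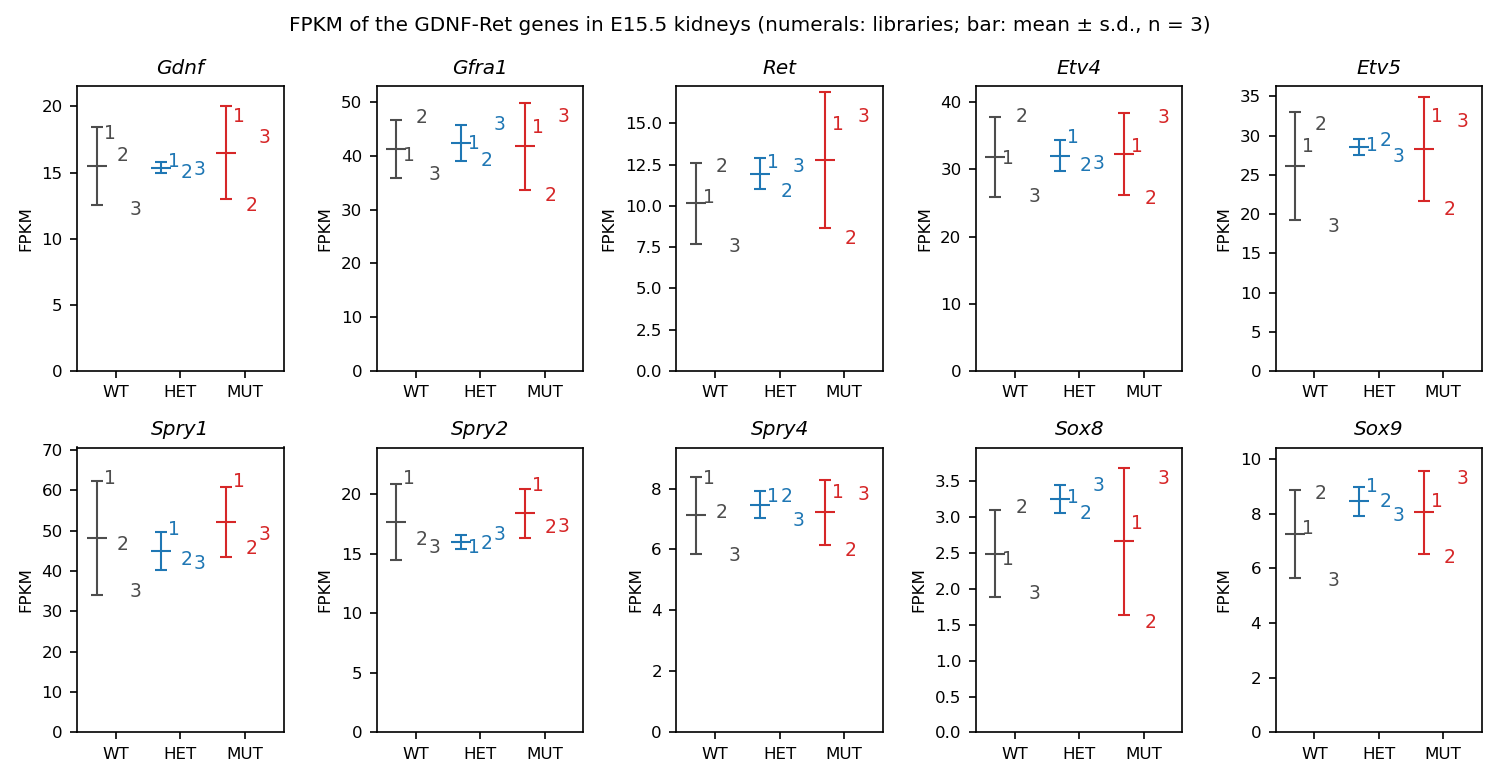
FPKM (y axis, from 0) of each of the 10 genes in WT, HET and MUT kidneys (x axis), where the numerals 1 to 3 mark the libraries and the bars the mean±s.d. of 3. The HET libraries lie close together, while WT-3 and MUT-2 are the lowest libraries of their genotypes for all 10 genes.

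Promoter sequences are shown for the ligand, the co-receptor and an ETS factor induced by RET. The sequence just upstream of each RefSeq start can thus be read beside the values of the gene. These 3 genes were below their mean over all libraries in WT-3 and MUT-2, as were all 10 genes. RefSeq (GRCm38.p6) entries were found for 6 of the 10 genes, *Gdnf*, *Gfra1*, *Etv5*, *Spry1*, *Spry2* and *Sox8*, and the 250 bases before the annotated start were searched on both strands for CCGGAA, a core sequence bound by ETS factors, and for ACAAT, a core of SOX binding sites. Capitals mark the matches. The window of *Gdnf* is chr15:7809798-7810047 (forward strand), that of *Gfra1* chr19:58455399-58455648 (reverse strand) and that of *Etv5* chr16:22439571-22439820 (reverse strand). The GENCODE annotation puts the start farther upstream, at 58455909 for *Gfra1* and at 22439719 for *Etv5*. By that annotation the *Gfra1* window lies inside the gene and the *Etv5* window partly inside. For *Gdnf* it puts the start farther downstream, at 7810846, so the *Gdnf* window does not reach up to that start.
Gdnf: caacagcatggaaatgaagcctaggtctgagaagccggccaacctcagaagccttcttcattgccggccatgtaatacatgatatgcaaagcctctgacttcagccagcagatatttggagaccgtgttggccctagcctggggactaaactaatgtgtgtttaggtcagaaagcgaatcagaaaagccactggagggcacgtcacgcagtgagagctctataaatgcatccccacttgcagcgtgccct
Gfra1: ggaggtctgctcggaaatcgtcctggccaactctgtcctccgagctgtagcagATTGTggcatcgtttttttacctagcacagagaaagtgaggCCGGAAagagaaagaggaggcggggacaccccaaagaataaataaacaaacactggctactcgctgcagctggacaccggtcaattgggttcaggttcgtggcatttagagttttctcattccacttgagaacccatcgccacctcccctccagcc
Etv5: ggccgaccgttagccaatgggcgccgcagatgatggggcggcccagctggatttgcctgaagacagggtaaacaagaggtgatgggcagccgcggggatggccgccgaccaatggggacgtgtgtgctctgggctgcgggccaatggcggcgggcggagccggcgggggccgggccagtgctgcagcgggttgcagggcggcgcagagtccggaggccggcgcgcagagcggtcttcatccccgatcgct
The promoter of *Gfra1* held 1 match to each core, the ETS core from base -156 and the SOX core, on the other strand as ATTGT, from base -197, counted back from the start. The other 5 promoters held neither. Over 32851 promoters of the same length, 12.0% held the ETS core and 27.7% the SOX core. A match describes the letters of this window and is no evidence of binding.

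*Etv4* and *Etv5* encode the ETS factors induced by RET. *Etv4* (chromosome 11, 101769742-101785310) had 31.7, 37.9 and 25.9 FPKM in WT, 34.8, 30.6 and 30.9 in HET and 33.5, 25.6 and 37.8 in MUT. *Etv5* (chromosome 16, 22381313-22439570) had 28.7, 31.5 and 18.4 in WT, 28.8, 29.4 and 27.4 in HET and 32.4, 20.6 and 31.8 in MUT. For both genes WT-3 and MUT-2 were the lowest of the 9 libraries and all genotypes overlapped. Between MUT and HET, the log2 fold change was -0.0055 for *Etv4* (95% interval -0.32 to 0.31, limma adjusted p = 0.993) and -0.039 for *Etv5* (95% interval -0.39 to 0.31, limma adjusted p = 0.957). Against WT, *Etv5* differed by 0.11 in MUT and 0.15 in HET, and *Etv4* by 0.019 and 0.025.

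The Sprouty genes encode intracellular inhibitors of receptor tyrosine kinase signalling, and *Spry1* is the member that restrains RET in the early kidney. *Spry1* (chromosome 3, 37639947-37644599) had 63.1, 46.5 and 34.97 FPKM in WT, 50.4, 43.0 and 41.8 in HET and 62.1, 45.5 and 49.0 in MUT. It was highest in WT-1 and MUT-1 and lowest in WT-3, and the MUT libraries overlapped both other genotypes. MUT exceeded HET by 0.20 in log2 (standard error 0.14, limma adjusted p = 0.752, exact p = 0.3), the highest value of the 9 genes, and by 0.072 to 0.29 when single libraries were left out. *Spry2* (chromosome 14, 105891947-105896819) had 21.3, 16.2 and 15.495 FPKM in WT, 15.51, 15.8 and 16.6 in HET and 20.7, 17.2 and 17.2 in MUT. All 3 MUT libraries lay above all 3 HET libraries, by 0.19 in log2 (95% interval -0.050 to 0.42, limma adjusted p = 0.738, exact p = 0.1, the smallest possible), and the difference was 0.10 to 0.23 when single libraries were left out. *Spry2* was 1 of 9 tested members whose MUT and HET libraries did not overlap, against 9.69% of all 10081 genes, made up of 5.19% higher and 4.50% lower in MUT, and WT, at 17.7±3.19 FPKM, overlapped both. The smallest MUT value exceeded the largest HET value by less than the s.d. of the MUT libraries, 2.04 FPKM. In the comparisons with WT, 0 of 9 members were without overlap, against 2.65% of genes for MUT (1.32% higher and 1.34% lower) and 3.21% for HET (2.15% higher and 1.06% lower).

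*Spry4* is on chromosome 18 and had 8.34, 7.21 and 5.81 FPKM in WT, 7.73, 7.73 and 6.95 in HET and 7.86, 5.97 and 7.81 in MUT. It followed *Gdnf* and the ETS genes in being lowest in WT-3 and MUT-2, and differed by -0.052 between MUT and HET (limma adjusted p = 0.927). Unlike *Spry4*, *Spry1* and *Spry2* were near their 9-library mean in MUT-2, where they deviated by -0.067 and -0.0063 in log2.

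*Sox8* and *Sox9* encode related SOX factors of the bud tips that are needed for the response to RET. *Sox9* (chromosome 11, 112782210-112787757) had 7.48, 8.74 and 5.57 FPKM in WT, 8.996, 8.44 and 7.94 in HET and 8.46, 6.38 and 9.31 in MUT, and differed by -0.076 between MUT and HET (standard error 0.14, limma adjusted p = 0.895). *Sox8* (chromosome 17, 25565893-25570686), the lowest of the 10 genes, had 2.41, 3.13 and 1.93 in WT, 3.27, 3.06 and 3.44 in HET and 2.91, 1.54 and 3.55 in MUT. In both genes WT-3 and MUT-2 again gave the lowest values. The HET values of *Sox8* lay inside the MUT range, and exact permutation tests gave p = 0.5 between MUT and HET, 0.8 between MUT and WT and 0.2 between HET and WT. *Sox9* is also a cartilage gene, and cartilage markers summed to at most 16.6 FPKM over 4 genes in the 9 libraries.

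On the FPKM scale, *Spry1* had the highest level (48.5±9.18 FPKM, mean±s.d. of the 9 libraries) and *Sox8* the lowest (2.80±0.695). Between them came *Gfra1* (41.8±5.13), *Etv4* (32.1±4.46), *Etv5* (27.7±4.95), *Spry2* (17.4±2.19), *Gdnf* (15.8±2.37), *Ret* (11.6±2.72), *Sox9* (7.92±1.24) and *Spry4* (7.27±0.877). The order was the same in all 9 libraries for 6 of the 9 neighbouring pairs, whereas *Spry1* exceeded *Gfra1* and *Spry2* exceeded *Gdnf* in 6 libraries each and *Sox9* exceeded *Spry4* in 7, so these neighbours did not differ beyond their spread. The co-receptor *Gfra1* exceeded *Ret* by 3.03-fold to 4.86-fold. Whole-kidney levels of *Gfra1* also include other cells that carry the gene, such as nephron progenitors and developing neurons.

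For all 10 genes, the range over the 3 WT libraries and that over the 3 MUT libraries each exceeded the largest difference between genotype means in FPKM. On the log2(FPKM + 1) scale, all 10 genes were below their 9-library mean in WT-3 and in MUT-2, with a median deviation of -0.34 and -0.30, respectively, while the median over all 9978 genes of at least 5 FPKM was 0.032 and -0.017. In MUT-1, 10 of 10 genes were above their mean (median 0.18), and in MUT-3 9 of 10 (0.20). Kidneys of 1 genotype, MUT, thus held both the highest and nearly the lowest of these medians. For single genes, the highest value lay in MUT-3 for 4 of the 10, WT-1 for 3, MUT-1 for 2 and WT-2 for 1. The 3 HET libraries deviated by a median of 0.082, -0.054 and -0.014. WT-3 held the lowest value for 7 of the 10 genes and MUT-2 for the other 3.

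**Figure D3:**
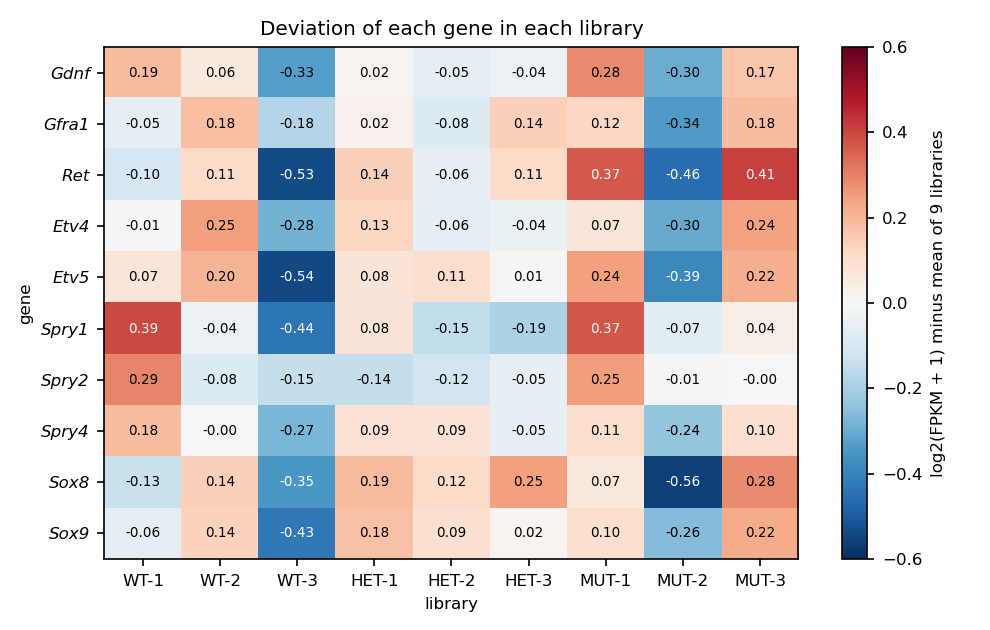
Log2(FPKM + 1) of each of the 10 genes (rows) in each of the 9 libraries (columns), minus the mean of that gene over the 9 libraries, with the value printed in each cell (red above, blue below). The WT-3 and MUT-2 columns are below 0 for 10 of 10 genes, with *Etv5* at -0.54 in WT-3 and *Sox8* at -0.56 in MUT-2.

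Leaving out single libraries turned the direction of many, but not all, of the 9 genes. Between MUT and HET, the 9 genes went from 4 higher to 9 higher without MUT-2, with a median log2 fold change of 0.17, and to 2 higher without MUT-1, with a median of -0.088. Without MUT-2, 2 of the 9 had an unadjusted limma p under 0.05, beside 340 of all 10070 genes in that fit. The smallest limma adjusted p of the 9 was 0.972. An unadjusted limma p under 0.05 was also found for 1 of the 9 between MUT and WT without MUT-2, beside 126 of 10098 genes. Between HET and WT it was found for 1 of the 9 without WT-2, beside 395 of 10148 genes. Between MUT and WT, 9 genes were higher with all libraries, but 1 of 9 without WT-3 (median -0.073) and 4 of 9 without MUT-1. Between HET and WT, 7 were higher with all libraries and 2 without WT-3 (median -0.072). Without HET-2, 3 of the 9 were higher in MUT than in HET (median -0.020) and 7 of the 9 in HET than in WT. In each of these fits, 0 of the 9 genes were called.

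Other gene lists were read in the same libraries. In WT-3, regulators of *Gdnf* expression and range were also low, 13 of 14 with a median of -0.30, as were 7 of 11 ureteric epithelium markers (-0.27), 5 of 5 nephron progenitor markers (-0.21), of which *Six2* and *Eya1* are also in the list of regulators, and 4 of 6 stromal markers (-0.19). In MUT-2, 10 of 14 *Gdnf* regulators (median -0.069), 6 of 11 ureteric epithelium markers (-0.042), 4 of 5 nephron progenitor markers (-0.17) and 2 of 6 stromal markers (0.089) were below their means. *Cdh1*, the epithelial cadherin, had 27.2 FPKM in WT-3, the lowest of the 9, and 36.7 in MUT-2, while *Six2*, the nephron progenitor factor, had 57.8 and 89.7, and was the 1 of the 5 progenitor markers not below its mean in MUT-2. In WT-3 the low pathway values came with low values of other kidney cell markers. In MUT-2 the medians of the ureteric epithelium and stromal markers were nearer to 0. The median of the nephron progenitor markers in MUT-2 was close to that in WT-3. The part of cell composition was not tested. After each library was centred within 20 bins of transcript GC content, an alternative chosen after the data were seen, the median deviation of the 9 tested genes was -0.27 in WT-3 and -0.24 in MUT-2, from -0.33 and -0.30.

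**Figure D4:**
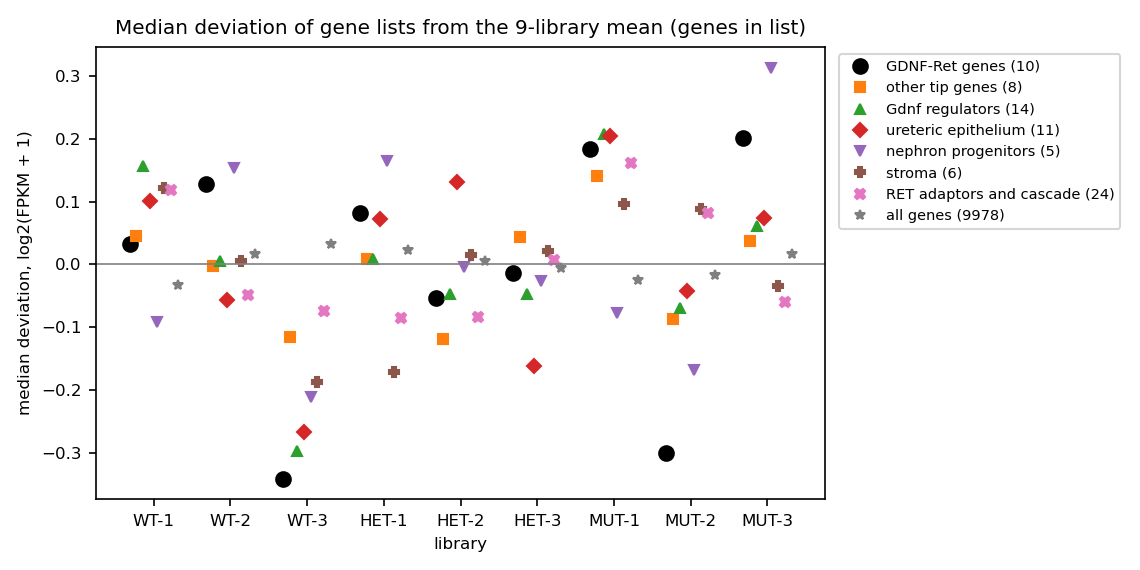
Median deviation from the 9-library mean in log2(FPKM + 1) (y axis) of the GDNF-Ret genes and of 6 other lists in each library (x axis), with the number of genes of each list in the legend and all genes of at least 5 FPKM as stars. The GDNF-Ret genes (black) have the lowest median in WT-3 (-0.34) and in MUT-2 (-0.30).

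Most of the genes varied together over the 9 libraries. Pearson's r with *Ret* was 0.920 for *Etv5*, 0.916 for *Sox9*, 0.894 for *Gfra1*, 0.884 for *Etv4* and 0.868 for *Gdnf*, but 0.761 for *Spry4*, 0.538 for *Spry1* and 0.270 for *Spry2* (Spearman's rho 0.867, 0.933, 0.833, 0.817, 0.700, 0.583, 0.500 and 0.283). These values describe 9 libraries that share depth and cell makeup within each library, and they rested largely on WT-3 and MUT-2, the libraries farthest from the median of *Ret*. Without them r fell to 0.677, 0.660, 0.768, 0.605 and 0.504 for the first 5 and to -0.10 for *Spry4*. *Sox8* went from 0.872 to 0.555. *Spry1* was closer to *Gdnf* than to *Ret*, at r = 0.826 over 9 libraries and 0.878 without WT-3 and MUT-2. Over the 9 libraries, *Etv5* (0.908), *Spry4* (0.904) and *Ret* (0.868) were more like *Gdnf* than *Spry1* was.

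Among 9977 other genes of at least 5 FPKM, those most like *Ret* by Pearson's r over the 9 libraries were *Lmnb1*, a nuclear lamin, *Padi2*, *Prep*, *Sel1l3* and *Btbd11*, with r from 0.946 to 0.953, and 23 genes exceeded 0.9. *Wnt11*, a tip gene that depends on RET, ranked 22 (r = 0.911) and *Etv5* 14. The genes most like *Gdnf* were *Sf1*, *Gcn1l1*, whose locus also carries a microRNA name, *Ints1*, *Myh9* and *Vars*, with r from 0.965 to 0.973, and 99 genes exceeded 0.9. *Sf1*, a splicing factor, had 54.7 FPKM in WT-3 and 58.9 in MUT-2, its 2 lowest values, and 83.6 in MUT-1, its highest. *Gdnf* thus had its closest likeness to broadly expressed genes, and 76 genes were more like it than *Etv5* was.

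Ratios of FPKM set a gene beside another in the same library, although cells other than those of the bud tip may add to either gene. The ratio of *Etv4* to *Ret* was 3.00, 3.06 and 3.45 in WT, 2.76, 2.81 and 2.49 in HET and 2.24, 3.20 and 2.45 in MUT, so all HET ratios lay below all WT ratios and MUT overlapped both. The ratio of *Gfra1* to *Ret* also separated, at 3.34 to 3.71 in HET and 3.79 to 4.86 in WT, with MUT overlapping both. The ratios of *Etv4* and of *Gfra1* share *Ret*, so they are not independent. Between HET and WT, 3.21% of single genes did not overlap. That share is for FPKM of single genes and gives no background for ratios. *Etv5* to *Ret* was 2.72, 2.54 and 2.45 in WT, 2.28, 2.71 and 2.21 in HET and 2.17, 2.57 and 2.06 in MUT and overlapped between genotypes. The ratio of *Ret* to *Wnt11* was 0.494, 0.546 and 0.394 in WT, 0.525, 0.509 and 0.602 in HET and 0.612, 0.410 and 0.605 in MUT. WT-3 and MUT-2 again gave the lowest ratios, so *Ret* was low there relative to this other tip gene. *Gdnf* to *Six2*, both of the cap mesenchyme, was 0.221, 0.186 and 0.211 in WT, 0.166, 0.190 and 0.185 in HET and 0.201, 0.140 and 0.166 in MUT, overlapping throughout and lowest in MUT-2. No test was made on these ratios.

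**Figure D5:**
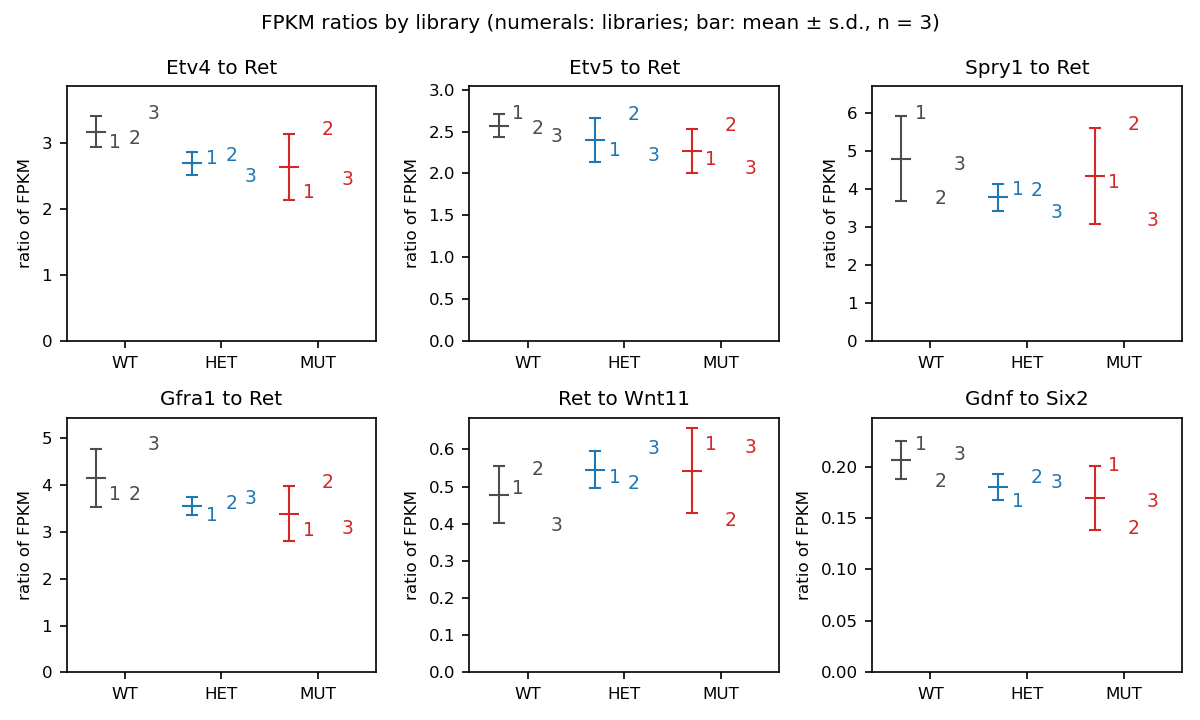
Ratio of FPKM (y axis, from 0) for 6 pairs of genes in WT, HET and MUT kidneys (x axis), with the libraries as numerals and the mean±s.d. of 3 as bars. WT-3 and MUT-2 have the lowest ratios of *Ret* to *Wnt11* (0.394 and 0.410) and the highest of *Etv4* and *Gfra1* to *Ret* in their genotypes.

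The other genes of the pathway were read from lists by role, and 0 of their genes were called by limma in any comparison. At an unadjusted p under 0.05, limma gave 5 of the 49 tested genes of these lists between MUT and HET, all higher in MUT, 1 of 49 between MUT and WT and 1 of 48 between HET and WT. Over all tested genes the shares were 6.31%, 0.644% and 1.07%, and between MUT and HET they comprised 371 genes higher and 265 lower in MUT. Among regulators of *Gdnf* and of its range, MUT exceeded HET for 11 of 14 tested genes and fell below it for 3, with a median log2 fold change of 0.13, while 45.9% of all tested genes were higher. *Hoxd11* and *Pax2*, transcription factors that act upstream of *Gdnf*, had the smallest unadjusted p of that list. *Pax2* had 63.2, 56.8 and 37.0 FPKM in WT, 47.6, 36.2 and 48.8 in HET and 68.6, 43.9 and 62.6 in MUT, and differed by 0.38 between MUT and HET (limma adjusted p = 0.738). *Hoxd11* had 32.0, 23.7 and 28.8 in WT, 22.1, 20.9 and 28.6 in HET and 30.8, 31.0 and 27.0 in MUT, with HET-3 inside the MUT range, and differed by 0.31 (limma adjusted p = 0.738). *Six2* had 75.6±15.8, 85.7±8.65 and 97.3±8.53 FPKM in WT, HET and MUT (mean±s.d., n=3 each). All MUT libraries lay above all WT libraries for *Six2* (log2 difference 0.38, limma adjusted p = 1.00), as for 1.32% of all genes.

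Of 8 other tested tip or Ret-dependent genes, MUT was above HET for 5 and below for 3. *Wnt11*, the ligand whose expression depends on RET and which acts back on *Gdnf*, had 21.4, 22.7 and 19.1 FPKM in WT, 24.1, 21.4 and 20.6 in HET and 24.4, 19.5 and 25.5 in MUT, without separation of the genotypes (log2 fold change 0.065 between MUT and HET, limma adjusted p = 0.899). *Mmp14*, a matrix metalloprotease, had 90.9, 90.0 and 62.3 in WT, 71.7, 72.3 and 80.4 in HET and 99.2, 89.6 and 93.8 in MUT, with all MUT above all HET libraries (log2 fold change 0.33, limma adjusted p = 0.738), as for 5.19% of all genes. *Dusp6*, a phosphatase that damps MAPK signalling and is named here after its values were seen, had 46.5, 44.0 and 44.4 FPKM in WT, 49.4, 51.9 and 47.6 in HET and 45.97, 38.4 and 44.5 in MUT. All MUT libraries were below all HET libraries for *Dusp6* (log2 fold change -0.21, limma adjusted p = 0.738), as for 4.50% of all genes. *Spred2*, an inhibitor of the RAS and MAPK cascade, differed by 0.33 between MUT and HET (limma adjusted p = 0.738), and its libraries overlapped.

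The adaptors of RET and its cascade were measured by 26 genes, 24 of them tested, of which MUT was above HET for 17 and below for 7 (median 0.067). *Grb2*, an adaptor that links receptors to RAS, had 45.0, 36.7 and 29.3 FPKM in WT, 33.5, 35.5 and 33.0 in HET and 45.1, 43.5 and 36.0 in MUT, with no overlap between MUT and HET (log2 fold change 0.28, limma adjusted p = 0.738). Of the 24 cascade genes, 2 had all MUT libraries above all HET libraries, *Grb2* and the kinase gene *Src* (log2 fold change 0.23). In 1, *Map2k1*, which encodes a MAPK kinase, they lay below (-0.12). *Src* and *Map2k1* were named after their values were seen. Among all 10081 genes tested between MUT and HET, 5.19% lay higher without overlap and 4.50% lower. *Cbl*, a ubiquitin ligase that sends active receptors for degradation, had 14.8, 7.29 and 10.01 in WT, 4.26, 4.29 and 11.6 in HET and 15.2, 11.6 and 7.21 in MUT, with values of HET-1 and HET-2 below all others, and differed by 0.75 (limma adjusted p = 0.738). Of the other GDNF family ligands and receptors, 2 of 8 were tested. *Nrtn*, the ligand neurturin, had 2.33, 4.38 and 3.33 FPKM in WT, 5.57, 3.93 and 4.11 in HET and 3.71, 5.96 and 6.95 in MUT, and *Gfra4*, a co-receptor, had 5.95, 6.98 and 6.13 in WT, 7.38, 7.94 and 7.51 in HET and 6.26, 5.99 and 9.04 in MUT. Neither passed the test (limma adjusted p = 0.793 and 0.858 between MUT and HET). The means of *Artn*, *Pspn*, *Gfra2*, *Gfra3*, *Gfral* and *Gdf15* were under 5 FPKM. *Fgfr2*, the receptor for FGF signals that reach the tip beside GDNF, had 35.4±1.71 FPKM in HET and 38.4±2.45 in MUT (mean±s.d., n=3 each, limma adjusted p = 0.791), and its ligands *Fgf7* and *Fgf10* were under the minimum.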

How the data were processed

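The authors sequenced stranded poly(A) libraries of 9 kidneys and deposited 1 table of FPKM values for 24138 loci, made with STAR, Cufflinks and CuffDiff on mm10, per the submitters' processing notes and the study's methods. The versions and the annotation are not given in the sources used here. The FPKM values hold the authors' scaling to library size and give no reads, so no count test was possible. At 355 loci several gene names are joined, and starts were raised by 1 to count from 1. FPKM + 1 was log2 transformed, loci whose mean reached 5 FPKM in 1 or both genotypes were compared with limma 3.58.1 (R 4.3.3, eBayes with a trend, only the 2 genotypes compared) and p-values were adjusted by the Benjamini-Hochberg method over all loci tested. The fit was tested on simulated data. Exact two-sided permutation tests used scipy 1.17.1. Replicates are separate kidneys. The members and gene lists were chosen with earlier results of these data known, and the promoter motifs after the data were seen. Genes outside the members were named if they were *Ntn1*, *Foxd1*, *Wnt11*, *Six2* or *Cdh1*, had 1 of the 2 smallest limma p of their pathway list between MUT and HET, marked a cell type that touches a member, or were among the 5 most like *Ret* or *Gdnf*.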

Additional observations from a re-analysis of the deposited data

How the results depend on the processing

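None of the 9 tested genes was called by limma under any of the 17 alternatives in each comparison, and their adjusted p ranged over them from 0.326 to 0.999 between MUT and HET, from 0.857 to 1.00 between MUT and WT and from 0.771 to 1.00 between HET and WT. Of the recomputed differences that a setting could move, 274 kept their direction and 50 reversed, and the cause was not tested. Other minimums, the fit of all 9 libraries, the fit without a trend and the replicate block alone cannot change a fold change and are not counted. The GC correction gave the same fold changes with and without the block, and both fits are counted, so its reversals enter these counts more than once. Between MUT and HET, *Etv4* changed to 0.013 with median-ratio rescaling and 0.020 with quantile normalization, and *Gfra1* to 0.0014 and *Etv5* to 0.0083 with a GC correction, with or without the replicate block. With those 2 GC fits, *Etv4* changed to -0.045 between MUT and WT, and *Gdnf* to -0.015 and *Etv4* to -0.030 between HET and WT. Leaving out 1 library each gave, between MUT and HET, -0.041 to 0.25 for *Gdnf*, -0.14 to 0.13 for *Gfra1*, -0.11 to 0.32 for *Ret*, -0.12 to 0.15 for *Etv4*, -0.15 to 0.17 for *Etv5*, -0.11 to 0.062 for *Spry4* and -0.18 to 0.063 for *Sox9*. Between MUT and WT it gave -0.073 to 0.25 for *Gdnf*, -0.092 to 0.17 for *Gfra1*, -0.12 to 0.17 for *Etv4*, -0.11 to 0.32 for *Etv5*, -0.065 to 0.35 for *Spry1*, -0.024 to 0.20 for *Spry2*, -0.10 to 0.13 for *Spry4* and -0.020 to 0.28 for *Sox9*. Between HET and WT it gave -0.15 to 0.11 for *Gdnf*, -0.036 to 0.14 for *Gfra1*, -0.11 to 0.15 for *Etv4*, -0.072 to 0.30 for *Etv5*, -0.27 to 0.15 for *Spry1*, -0.21 to 0.011 for *Spry2* and -0.049 to 0.18 for *Spry4*.

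Over all genes, limma called 0 in each comparison, and 636, 65 and 108 had an unadjusted p under 0.05 between MUT and HET, MUT and WT, and HET and WT. Leaving out 1 library gave 0 to 3 called genes in each comparison. Between MUT and HET these were 1 without MUT-2, 3 without MUT-3 and 2 without HET-1, between MUT and WT 1 without MUT-2, 3 without WT-1 and 1 without WT-2, and between HET and WT 1 without HET-3, 3 without WT-2 and 1 without WT-3, and no GDNF-Ret gene was among them. With the replicate block, 0 genes were called and 494, 201 and 233 had an unadjusted p under 0.05. Same-numbered libraries did not deviate together in every pair, with correlations over genes of -0.32, 0.057 and -0.14 between MUT and HET, 0.56, -0.26 and -0.035 between MUT and WT, and -0.19, -0.054 and 0.17 between HET and WT, so the numbers were not taken to pair the kidneys. The unadjusted counts also moved by over 1.5 times with all 9 libraries in 1 fit (400 between MUT and HET), with a minimum of 1 FPKM (153 and 196 against WT), with no minimum (961, 520 and 495), with the block and GC correction (239 between MUT and WT) and without single libraries (278 to 1837, 36 to 377 and 99 to 625), and the cause was not tested. The unknown read depth limits the low genes, *Sox8* first.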
